A study of Mus musculus with 10 samples.

Results

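Fatty acid oxidation in mitochondria and peroxisomes was followed through 9 genes, Ppara, Pdk4, Cpt1a, Cpt2, Acadm, Acadvl, Hadh, Hadha and Ehhadh, each found by its symbol as 1 row among the 47340 genes of the deposited FPKM table. The rows were picked by name, but the 9 genes were chosen with earlier results of these data known. Islets came from male mice aged 12 wk on chow and were kept overnight in complete CMRL medium after isolation. The 5 floxed control (FL) mice were FIT2 fl/fl littermates, which the genotype field labels wild type and the titles label Flox. The 5 βFIT2KO (KO) mice were FIT2 fl/fl and carried Cre under the rat insulin promoter, from the transgene Tg(Ins2-cre)25Mgn, so that deletion was aimed at β cells while the RNA came from whole islets. The floxed alleles are common to both groups, Cre is not named for FL mice, and islets with Cre and an intact gene are not among the libraries. Effects of the transgene and of the loss of FIT2 therefore cannot be told apart. FIT2, encoded by Fitm2, is an ER protein needed for the formation of lipid droplets. The comparison addresses how islet transcripts differ between FL mice and mice that have both the transgene and the deletion.

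Fatty acids enter β-oxidation as acyl-CoA. Long chains cross into mitochondria as carnitine esters, made by carnitine palmitoyltransferase 1 on the outer membrane and turned back into acyl-CoA by carnitine palmitoyltransferase 2 on the inner membrane. Each round then runs through an acyl-CoA dehydrogenase, a hydratase, a 3-hydroxyacyl-CoA dehydrogenase and a thiolase. Peroxisomes run a parallel spiral, with bifunctional enzymes in the middle steps. PPARα, a nuclear receptor activated by fatty acids, is known in liver to induce many of these genes. In β cells, malonyl-CoA made from glucose holds back carnitine palmitoyltransferase 1, and loss of the short-chain enzyme encoded by Hadh is a known cause of excess insulin secretion.

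Values are FPKM, fragments scaled by transcript length and library size, with 1 library per mouse. Library sums lay between 646233 and 675470 FPKM in FL and between 627084 and 653292 FPKM in KO. Depth, read from the size of 1 read in low values, relative to FL1 was 1.41 to 2.41 for the remaining FL mice and 1.51 to 2.05 for KO mice. Fitm2 was at 23.3 ± 9.86 FPKM in FL islets, against 6.95 ± 2.36 FPKM in KO islets (SD, n = 5), with every KO library below every FL library. Of 9 β cell markers tested, 6 were called lower in KO, where 16.5% of all genes were, and the summed level of all 12 listed was 2777 to 3506 FPKM in FL and 1950 to 2698 FPKM in KO. The defining hormones Ins1, Ins2, Iapp and Gcg are listed at 0 in every library, which in a table without counts can be a failed estimate. Acinar markers varied widely, from 4777 to 12797 FPKM in FL and from 3146 FPKM in KO2 to 23304 FPKM in KO5. Results for the 9 genes are therefore given also without KO2 and KO5 where that changes a call. In RNA of whole islets, fewer cells of a type and less RNA per cell cannot be told apart. By other measures, the paper saw no discernible difference between βFIT2KO and floxed control mice in islet composition or insulin content.

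Ehhadh rose in KO islets, Hadh and Cpt2 fell, and the other tested genes did not pass the test. The call of Cpt2 was lost under all 4 rescalings of the libraries. Ehhadh, the peroxisomal bifunctional enzyme, was 1.73 times as high in KO as in FL. Hadh, the mitochondrial short-chain 3-hydroxyacyl-CoA dehydrogenase, fell by 23.7% on average, and Cpt2, the inner carnitine palmitoyltransferase, fell by 13.5%. With limma on log2(FPKM + 1) and Benjamini-Hochberg adjustment over the 13065 genes whose mean reached 1 FPKM in either group, 8 of the 9 genes were tested and 3 passed an adjusted p of 0.05, against 25.5% of all genes tested. In each direction, 1 of the 8 was called higher, where 9.05% of all genes were, and 2 were called lower, where 16.5% were. FL and KO libraries did not overlap for 3 of the 8, as they did not for 19.1% of all genes. For the 8 genes the median log2 fold change was −0.02, beside −0.06 for all genes. Over all genes 2150 were lower and 1183 higher, and after rescaling the libraries by median ratio 1530 were lower and 1614 higher. With so few genes these shares say nothing particular about the pathway. Ppara stayed under the filter and was compared by an exact permutation test, and by limma only in the alternative without a filter (adjusted p = 0.957).

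**Figure D1:**
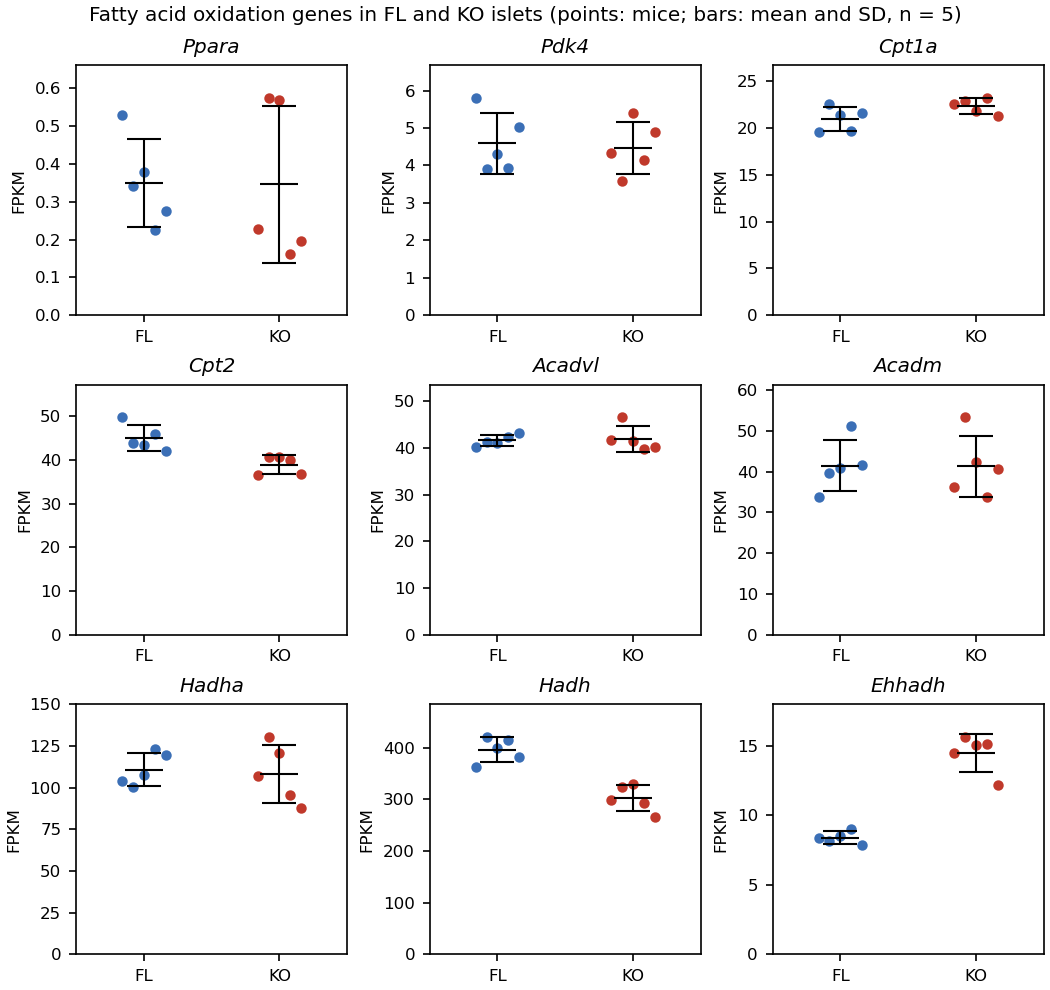
FPKM (y axis, from 0, a separate scale per gene) of the 9 genes in islets of 5 FL and 5 KO mice (x axis), with 1 point per mouse and bars for the mean and SD. Every KO point lies above every FL point for Ehhadh and below every FL point for Hadh and Cpt2, and the groups overlap for the other 6 genes.

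Levels per length spanned a wide range and kept nearly the same order in both groups. Hadh led at 396 ± 23.7 FPKM in FL islets, against 302 ± 25.7 FPKM in KO islets (SD, n = 5), followed by Hadha, and every library of each group had Hadh above Hadha. Cpt2, Acadvl and Acadm came next at means of 38.9 to 45.0 FPKM, and their ranges overlapped, so their order among themselves is not resolved. Cpt2 stood first of these 3 in FL and last in KO. Cpt1a, Ehhadh, Pdk4 and Ppara followed in that order, and between neighbours among these 4 the libraries of a group did not overlap.

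Of the regulators, Ppara encodes PPARα, and its transcript was scarce in islets. It was at 0.529, 0.341, 0.377, 0.226 and 0.275 FPKM in FL and at 0.228, 0.575, 0.569, 0.162 and 0.196 FPKM in KO. KO2 and KO3 were the highest of all 10 libraries and KO4 and KO5 the lowest, so the groups overlapped throughout. The means were 0.350 ± 0.116 FPKM in FL islets, against 0.346 ± 0.208 FPKM in KO islets (SD, n = 5; two-sided exact permutation p = 0.921). Each value rests on about 20 to 82 reads, which gives a counting error of up to 22.2% of the value. A change within the spread of the mice was not detectable. The gene (ENSMUSG00000022383.13) spans 85734983 to 85802819 of chromosome 15, plus strand (GRCm38, GENCODE M21, as are the positions that follow, with identifiers as in the deposited table).

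Pdk4 encodes a kinase that switches off pyruvate dehydrogenase when fatty acids are burned, and it is a known PPARα target. It was at 5.81, 3.91, 4.29, 3.92 and 5.03 FPKM in FL and at 4.33, 3.60, 5.40, 4.15 and 4.90 FPKM in KO. The groups overlapped fully, with the highest value in FL1 and the lowest in KO2. The gene (ENSMUSG00000019577.6) spans 5483351 to 5496309 of chromosome 6, minus strand. Its log2 fold change was −0.03 (SE 0.11, 95% interval −0.28 to 0.22, adjusted p = 0.878 from limma). Among the 4 pyruvate dehydrogenase kinases Pdk4 made up 6.09 ± 0.879% of the summed FPKM in FL and 7.19 ± 1.05% in KO (SD, n = 5; two-sided exact permutation p = 0.135, adjusted p = 0.162). Pdk1, the most abundant of the 4 in FL, was lower in KO at 23.9 ± 6.89 FPKM than in FL at 35.1 ± 2.65 FPKM (SD, n = 5; adjusted p = 0.0157 from limma). KO3, at 35.8 FPKM, lay within the FL range of Pdk1, and the adjusted p was 0.0767 without KO2 and KO5 and 0.151 from an exact Wilcoxon test. Pdk2 and Pdk3 had adjusted p of 0.658 and 0.860.

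In the carnitine shuttle, the gene of the entry enzyme and that of the exit enzyme differed in how they changed. Cpt1a, the liver form of the malonyl-CoA-sensitive step, was at 19.6, 22.6, 21.4, 19.7 and 21.6 FPKM in FL and at 22.6, 22.9, 21.8, 23.2 and 21.2 FPKM in KO. KO values sat in the upper part of the FL range or just above it. The gene (ENSMUSG00000024900.4) spans 3322334 to 3385733 of chromosome 19, plus strand. A log2 fold change of 0.09 (SE 0.05, 95% interval −0.02 to 0.20) did not pass (adjusted p = 0.228 from limma). Of 24 alternatives, upper quartile rescaling of the libraries alone brought it under the threshold, at a log2 fold change of 0.15 (adjusted p = 0.0491).

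Cpt2 was at 49.7, 43.7, 43.4, 45.9 and 42.0 FPKM in FL and at 36.5, 40.7, 40.7, 39.9 and 36.7 FPKM in KO. All 5 KO libraries were below all 5 FL libraries (p = 0.00794 in a two-sided exact permutation test, the lowest that 5 mice per group can give). The log2 fold change was −0.20 (SE 0.06, 95% interval −0.33 to −0.08, adjusted p = 0.0238 from limma). The gene (ENSMUSG00000028607.16) spans 107903981 to 107923610 of chromosome 4, minus strand. This call depended on the scaling of the libraries. With median ratio, upper quartile, quantile or common-sum scaling the log2 fold change became −0.15, −0.14, −0.14 or −0.16, with adjusted p of 0.0811, 0.104, 0.0972 and 0.0915. Without KO1 the adjusted p was 0.0594, and without KO2 and KO5 it was 0.0575. The direction was kept in each of these alternatives.

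The isoforms of carnitine palmitoyltransferase 1 were dominated by Cpt1a, with 84.5 ± 2.13% of their summed FPKM in FL and 86.8 ± 1.72% in KO (SD, n = 5; two-sided exact permutation p = 0.0952). The muscle form Cpt1b averaged 0.110 FPKM in FL and 0.144 in KO, under the filter of the test. The brain form Cpt1c averaged 3.72 and 3.24 FPKM (limma, adjusted p = 0.264). Slc25a20, the carrier that moves acylcarnitines across the inner membrane, was at 15.2 FPKM in FL islets, against 15.8 FPKM in KO islets (adjusted p = 0.447).

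The acyl-CoA dehydrogenases of the first mitochondrial step did not pass the test of limma. Acadvl, which acts on very long chains, was at 40.2, 41.4, 41.2, 42.4 and 43.1 FPKM in FL and at 41.6, 46.6, 41.5, 39.7 and 40.2 FPKM in KO. Apart from KO2, at the top, the KO values fell between 39.7 and 41.6 FPKM. On the log2 scale the change was 0.01 (SE 0.05, 95% interval −0.10 to 0.12, adjusted p = 0.926 from limma). The gene (ENSMUSG00000018574.14) spans 70010183 to 70015411 of chromosome 11, minus strand. Dvl2 and Mir324 overlap Acadvl on the opposite strand, and whether reads were counted by strand is not given in the sources used here.

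Acadm, the medium-chain enzyme, was at 33.9, 39.7, 41.0, 51.2 and 41.5 FPKM in FL and at 36.3, 53.3, 42.5, 33.8 and 40.7 FPKM in KO. It varied more within the groups than Acadvl, with a coefficient of variation of 15.0% in FL and 18.3% in KO against 2.76% and 6.49% for Acadvl. Its log2 fold change was −0.01 (SE 0.13, 95% interval −0.29 to 0.27, adjusted p = 0.962 from limma). That interval is wide enough to hold changes as large as that of Cpt2. Acadm (ENSMUSG00000062908.12) spans 153922357 to 153944632 of chromosome 3, minus strand. Of the related enzymes, the long-chain Acadl was at 43.8 FPKM in FL islets, against 40.6 FPKM in KO islets (adjusted p = 0.373). The short-chain Acads was at 13.2 and 13.3 FPKM (adjusted p = 0.925). Etfdh, which passes the electrons on to ubiquinone, was at 24.5 and 26.0 FPKM (adjusted p = 0.352).

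Hadha encodes the α subunit of the mitochondrial trifunctional protein, which carries out the later steps on long chains. It was at 104, 100.1, 107, 123 and 119 FPKM in FL and at 107, 130.5, 121, 95.5 and 88.0 FPKM in KO. KO2 and KO3 were high and KO4 and KO5 low, so that the KO mice spread over both ends of the FL range. The log2 fold change was −0.04 (SE 0.11, 95% interval −0.28 to 0.19, adjusted p = 0.797 from limma). Hadha (ENSMUSG00000025745.11) spans 30118304 to 30155162 of chromosome 5 on the minus strand, next to the β subunit gene Hadhb, which starts at 30155248 on the plus strand. Hadhb was at 159 ± 10.2 FPKM in FL islets, against 152 ± 11.7 FPKM in KO islets (SD, n = 5; adjusted p = 0.458). Garem2 overlaps Hadha on the opposite strand.

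Hadh encodes the 3-hydroxyacyl-CoA dehydrogenase for short and medium chains in the mitochondrial matrix, and its protein is known to bind and restrain glutamate dehydrogenase in β cells. It was at 363, 421, 399.8, 414 and 382 FPKM in FL and at 299, 324, 329.5, 292 and 266 FPKM in KO. The lowest FL library was above the highest KO library (two-sided exact permutation p = 0.00794, the lowest possible). The log2 fold change was −0.39 (SE 0.07, 95% interval −0.54 to −0.24, adjusted p = 0.00190 from limma). It stayed between −0.42 and −0.33 and under the threshold in the 24 alternatives that refitted it, but it is smaller than the 1.5-fold change of a stricter threshold. Each value rests on about 30327 to 76976 reads, so counting error, at most 0.574%, is far under the spread between mice. The gene (ENSMUSG00000027984.8) spans positions 131233419 to 131272101 of chromosome 3 (minus strand). Beside the fall in Hadh, 6 of the 9 β cell markers tested were lower in KO, where 16.5% of all genes were. Their part in the result was not tested.

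Ehhadh encodes the L-bifunctional enzyme of peroxisomes, with hydratase, isomerase and 3-hydroxyacyl-CoA dehydrogenase activities, and is among the best known PPARα targets of rodent liver. It was at 8.37, 8.17, 8.51, 9.05 and 7.83 FPKM in FL and at 14.5, 15.6, 15.1, 15.1 and 12.2 FPKM in KO. All KO libraries were above all FL libraries, and KO5 was the lowest of its group. The means were 8.39 ± 0.448 FPKM in FL islets, against 14.5 ± 1.35 FPKM in KO islets (SD, n = 5; two-sided exact permutation p = 0.00794, the lowest possible). The log2 fold change was 0.72 (SE 0.07, 95% interval 0.57 to 0.87, adjusted p = 2.90e-05 from limma). It stayed between 0.69 and 0.79 and under the threshold in all 24 alternatives. For Ehhadh (ENSMUSG00000022853.6 in the deposited table) GENCODE M21 gives 1 transcript of 2981 nt between 21761287 and 21787807 on chromosome 16 (minus strand), in a later version of the gene model. The values rest on about 548 to 1236 reads in FL and 1493 to 1934 reads in KO. Gm24898 overlaps the gene on the opposite strand.

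A list of genes that respond to lactogenic hormones in islets, prolactin and placental lactogen, moved in the same direction as Ehhadh. All 10 of its genes were called higher by limma and 9 by the exact Wilcoxon test, where Prlr, the prolactin receptor gene, was not (adjusted p = 0.151), where 9.05% of all genes were called higher by limma. Their summed level was 155 to 174 FPKM in FL and 399 to 521 FPKM in KO. Cish, a feedback inhibitor of the prolactin receptor pathway, was at 17.2 ± 2.86 FPKM in FL islets, against 66.3 ± 9.86 FPKM in KO islets, and Socs2, of the same family, was at 16.6 ± 0.773 and 38.8 ± 2.62 FPKM (SD, n = 5). The list was drawn up with these data already known, so its count is no independent evidence, and its part in the rise of Ehhadh was not tested. For these genes too, effects of the Cre transgene and of the loss of FIT2 cannot be told apart.

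The promoters of the 3 genes that passed are shown because these genes belong to the same pathway and changed in opposite directions. The sequences are the 250 bases before the RefSeq start of each gene (GRCm38.p6), 5′ to 3′ on the gene's own strand, which is the minus strand for all 3. Capitals mark the letters of a GC box (GGGCGG) or a CCAAT box (CCAAT) on either strand. They lie at chr16:21787835-21788084 for Ehhadh, chr3:131272102-131272351 for Hadh and chr4:107923590-107923839 for Cpt2.
Ehhadh: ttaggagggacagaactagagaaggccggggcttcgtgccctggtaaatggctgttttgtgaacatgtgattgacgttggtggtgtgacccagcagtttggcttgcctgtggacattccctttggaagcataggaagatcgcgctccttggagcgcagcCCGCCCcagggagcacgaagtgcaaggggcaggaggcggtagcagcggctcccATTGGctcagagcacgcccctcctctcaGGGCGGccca
Hadh: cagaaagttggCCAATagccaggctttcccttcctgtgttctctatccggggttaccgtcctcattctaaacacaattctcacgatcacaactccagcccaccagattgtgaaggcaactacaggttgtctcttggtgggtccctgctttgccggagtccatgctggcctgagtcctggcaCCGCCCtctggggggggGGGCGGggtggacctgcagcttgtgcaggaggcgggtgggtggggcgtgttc
Cpt2: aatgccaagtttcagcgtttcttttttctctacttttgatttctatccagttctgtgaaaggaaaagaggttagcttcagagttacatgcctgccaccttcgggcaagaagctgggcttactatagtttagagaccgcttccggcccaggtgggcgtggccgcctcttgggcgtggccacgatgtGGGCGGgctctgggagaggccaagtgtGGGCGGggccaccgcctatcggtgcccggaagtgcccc
Each of the 3 holds 2 GC boxes, and Ehhadh and Hadh each hold 1 CCAAT box. Counted from the start, the CCAAT box of Ehhadh begins at −38, on the reverse strand, and the closer GC box at −10. The CCAAT box of Hadh begins at −239 and the closer GC box at −52. GC boxes are found in 32.7% and CCAAT boxes in 33.8% of 32851 mouse promoters of the same length, searched on both strands, so both are common.

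All 9 genes were matched to a promoter. The binding motif of PPARα with its partner RXR was searched as AGGTCANAGGTCA on both strands. These letters were in none of the 9 windows, and in 0.0335% of all promoters. The 6 letters AGGTCA, which are part of that motif, were in Cpt1a, Acadm and Acadvl and in 14.0% of all promoters. The TATA box TATAAA (12.4% of promoters) and the letters CACGTG (6.02%), of the kind bound by carbohydrate-response factors, were in none of the 9. A window of 250 bases with exact letters says nothing about sites elsewhere or with other letters. The GC content of the windows ran from 49.6% for Acadvl to 76.4% for Ppara, against a median of 52.4% over all promoters.

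Ratios between genes of 1 library do not change when a library is multiplied by a factor, and 6 were compared with exact two-sided permutation tests adjusted over the 6. Ehhadh to Hadha, which sets the peroxisomal bifunctional enzyme against the mitochondrial trifunctional one, was 0.0760 ± 0.00662 in FL and 0.135 ± 0.0149 in KO (SD, n = 5). Each KO library was above each FL library, and the log2 ratio differed by 0.83 (exact permutation p = 0.00794, adjusted p = 0.0159).

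Hadh to Hadha was 3.59 ± 0.391 in FL and 2.82 ± 0.236 in KO (SD, n = 5; log2 difference −0.35, exact permutation p = 0.00794, adjusted p = 0.0159). Cpt1a to Cpt2 was 0.469 ± 0.0551 in FL and 0.575 ± 0.0305 in KO (SD, n = 5; log2 difference 0.30, exact permutation p = 0.00794, adjusted p = 0.0159). The groups did not overlap for either ratio. A ratio shows that its genes changed unequally, not which of them moved. The genes in these ratios were chosen with earlier results of these data known, so the ratios are no independent evidence. Acadm to Acadvl was 0.994 ± 0.132 in FL and 0.980 ± 0.121 in KO (SD, n = 5; exact permutation p = 0.921, adjusted p = 0.921). The shares of Cpt1a and Pdk4 among their isoforms had adjusted p of 0.143 and 0.162 in the same exact tests.

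**Figure D2:**
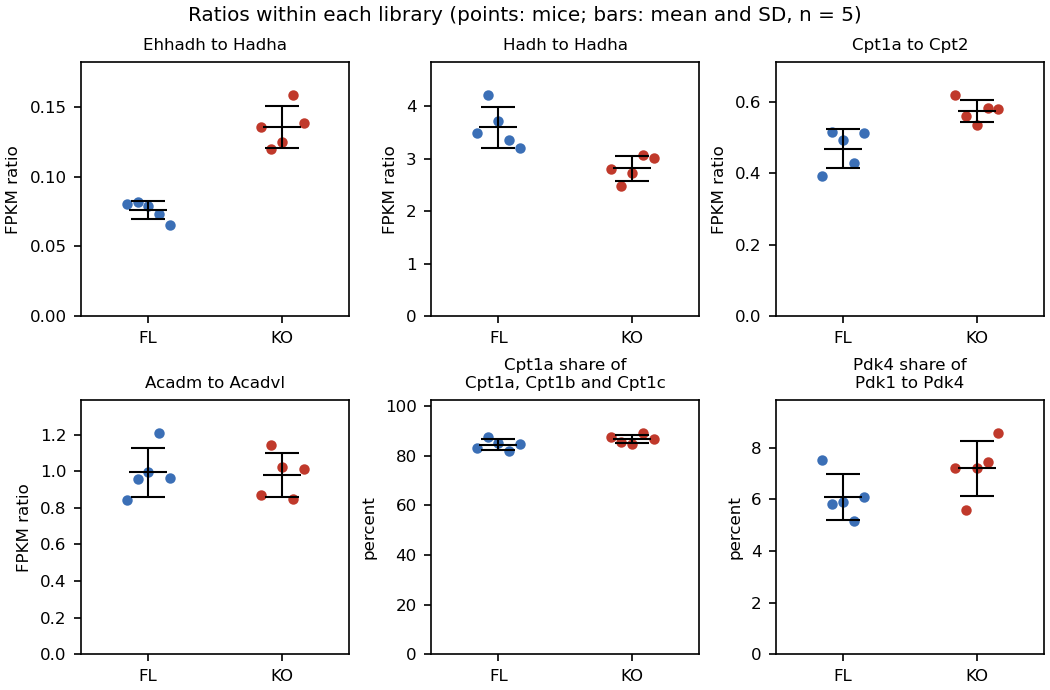
Ratios of FPKM or percent shares (y axes, from 0) within each library for 5 FL and 5 KO mice (x axis), with 1 point per mouse and bars for the mean and SD. The FL and KO points separate for Ehhadh to Hadha, Hadh to Hadha and Cpt1a to Cpt2, and overlap for the other 3 measures.

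The genes did not vary alike from mouse to mouse. KO2 was the highest KO library for 6 of the 9 genes and KO5 the lowest for 4. KO2 had the lowest and KO5 the highest acinar marker sum of all libraries, and the part of these cells in the spread was not tested. Against the FL mean, KO2 was higher by 0.36 for Acadm and 0.23 for Hadha on the log2 scale of FPKM, while KO4 stood at −0.30 and −0.22. For Ehhadh the KO libraries lay between 0.54 and 0.90 and for Hadh between −0.58 and −0.26, so each KO mouse moved in the direction of its group. For Ppara they ran from −1.11 to 0.72.

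**Figure D3:**
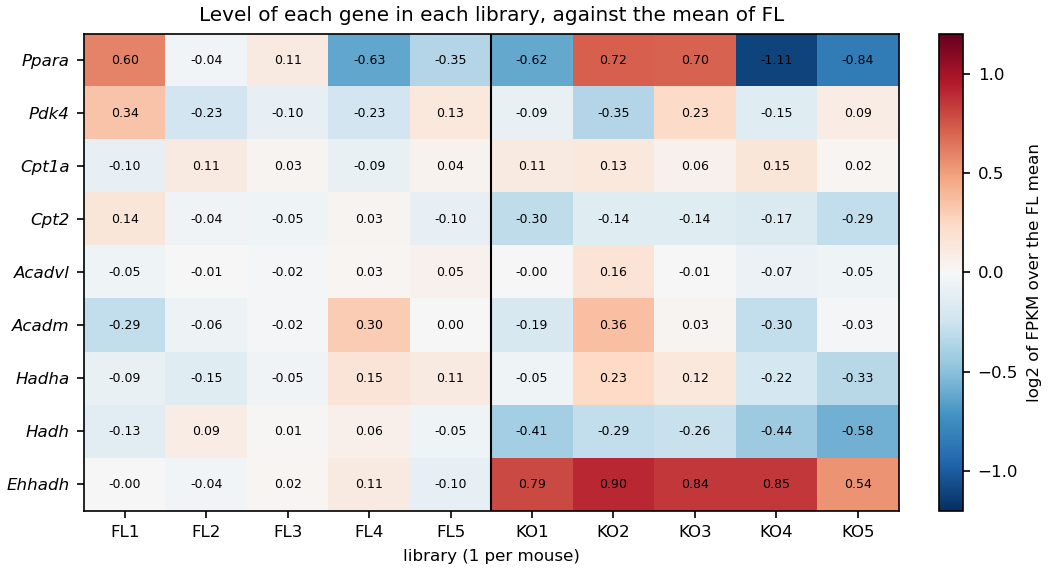
Log2 of FPKM over the FL mean (color and printed values) for the 9 genes (rows) in each of the 10 libraries (columns), with a line between FL and KO. The Ehhadh row is red and the Hadh and Cpt2 rows are blue in every KO library. Ppara, Pdk4, Acadvl, Acadm and Hadha hold values of both signs within each group.

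Hsd17b4 and Acaa1a, direct partners of Ehhadh in peroxisomal oxidation, did not pass the test. Hsd17b4, the other bifunctional enzyme, was at 32.5 ± 2.31 FPKM in FL islets, against 32.6 ± 2.21 FPKM in KO islets (SD, n = 5; adjusted p = 0.984 from limma). The thiolase Acaa1a was at 43.2 ± 1.12 and 37.5 ± 5.33 FPKM (SD, n = 5; adjusted p = 0.0833), and without KO2, which was the highest at 46.7 FPKM, its log2 fold change was −0.29 with an adjusted p of 0.00150. Without KO2 and KO5 it was −0.31 (adjusted p = 0.00123). Of the 18 peroxisomal oxidation genes tested among 24 listed, 2 were called higher and 2 lower, with a median log2 fold change of −0.05. Over all genes 9.05% were called higher and 16.5% lower, so these counts say nothing particular about the list. Besides Ehhadh, Pecr rose, at 20.2 ± 1.03 FPKM in FL islets, against 25.7 ± 1.47 FPKM in KO islets (SD, n = 5; adjusted p = 0.00118), a peroxisomal reductase of trans-2-enoyl-CoA. Eci2, an enoyl-CoA isomerase, fell from 95.8 ± 2.90 to 78.8 ± 4.86 FPKM (SD, n = 5; adjusted p = 0.00237), and Acsl1, which activates long-chain fatty acids, from 12.4 ± 2.35 to 9.18 ± 0.768 FPKM (SD, n = 5; adjusted p = 0.0240, lost in 8 of 24 alternatives).

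**Figure D4:**
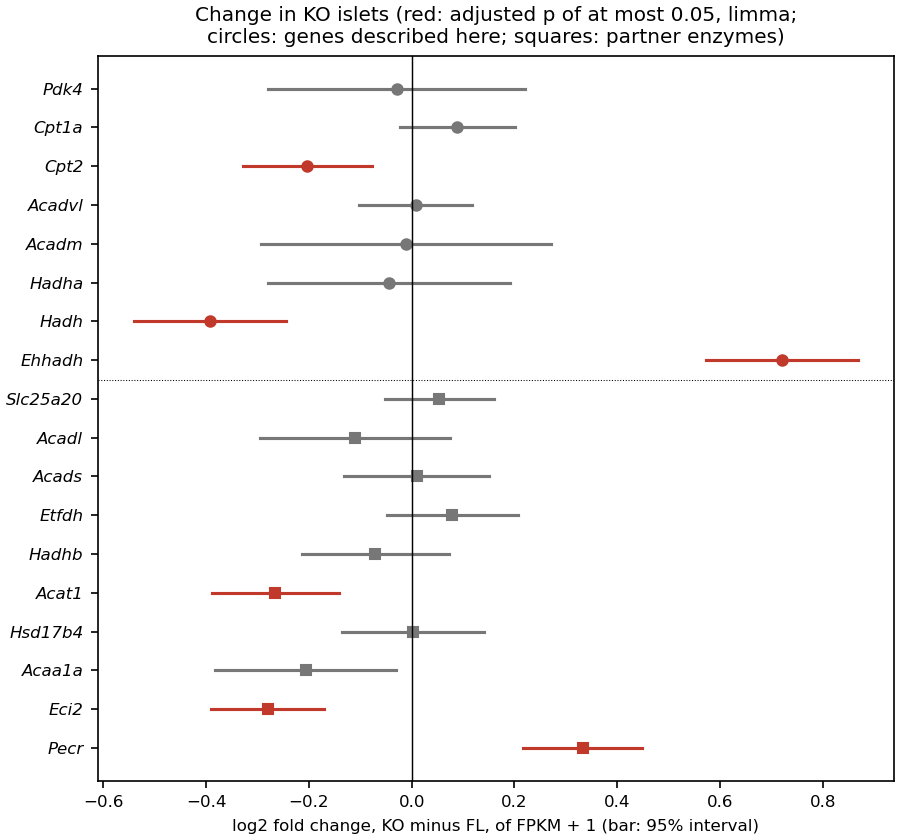
Log2 fold change of FPKM + 1, KO minus FL (x axis), with its 95% interval from limma, for the 8 tested genes (circles) and 10 partner enzymes (squares), of which Acat1, Eci2 and Pecr were chosen because they passed. Red marks an adjusted p of at most 0.05, reached by Ehhadh and Pecr above 0 and by Hadh, Cpt2, Acat1 and Eci2 below 0.

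Peroxisome biogenesis had 17 of 18 genes tested, with 1 called higher and 5 lower and a median log2 fold change of −0.03. Over all genes 9.05% were called higher and 16.5% lower, and an exact Wilcoxon test called 3 of the 17. Those called lower were Pex2, Pex6, Pex11a, Pex19 and Pex26, whose products import matrix proteins, place membrane proteins or divide the organelle. Pex6 had a log2 fold change of −0.43 (adjusted p = 0.00816 from limma, 0.0642 from the exact Wilcoxon test), Pex11a of −0.26 (adjusted p = 0.00872) and Pex26 of −0.23 (adjusted p = 0.00955). Catalase, Cat, was called higher at 0.23 (adjusted p = 0.0484) but lost the call in 14 of 24 alternatives.

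In the mitochondrial lists most genes did not pass, as over all genes, of which 25.5% were called (9.05% higher and 16.5% lower). Of 11 acyl-CoA dehydrogenase and electron transfer genes, 0 were called by limma and 0 by an exact Wilcoxon test, while 1 had an unadjusted p under 0.05 from limma. Of 9 genes of hydration, dehydrogenation and thiolysis, 2 were called lower, Hadh and the acetoacetyl-CoA thiolase Acat1, at 70.3 ± 4.20 FPKM in FL islets, against 58.3 ± 3.39 FPKM in KO islets (SD, n = 5; adjusted p = 0.00629). Hadhb was among those not called, and so were the hydratase Echs1 (log2 fold change −0.30, adjusted p = 0.0590) and the thiolase Acaa2 (−0.07, adjusted p = 0.436). Of 14 tested genes of the carnitine shuttle, acyl-CoA synthetases included, Acsl5 and Acsl4 were called higher and Cpt2 and Acsl1 lower. Acsl5 was at 45.5 ± 0.961 FPKM in FL islets, against 59.4 ± 6.74 FPKM in KO islets (SD, n = 5; adjusted p = 0.00333 from limma), with no overlap. Acsl4 (log2 fold change 0.34, adjusted p = 0.0329) lost the call in 11 of 24 alternatives.

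Of 9 tested regulators among 12, 2 were called, both lower, where 16.5% of all genes were called lower and 9.05% higher. Mlxipl, the gene of ChREBP, a glucose-sensing transcription factor, had the greater change, from 47.2 ± 4.23 to 20.2 ± 1.25 FPKM (SD, n = 5; log2 fold change −1.18, adjusted p = 6.88e-07 from limma). Sirt3, a mitochondrial deacetylase, fell from 14.4 ± 1.05 to 11.3 ± 0.934 FPKM (SD, n = 5; adjusted p = 0.00429). Rxra, a gene of the PPARα partner RXR, was at 17.1 ± 1.38 FPKM in FL islets, against 14.5 ± 1.67 FPKM in KO islets (SD, n = 5). The groups did not overlap, but limma did not call it (log2 fold change −0.23, adjusted p = 0.0581). The other PPAR genes were more abundant than Ppara. Ppard was at 19.9 FPKM in FL islets, against 17.6 FPKM in KO islets (adjusted p = 0.142) and Pparg at 28.4 and 28.2 FPKM (adjusted p = 0.918). The coactivator genes Ppargc1a (0.920 and 0.469 FPKM) and Ppargc1b (0.761 and 0.558 FPKM) stayed under the filter and were not tested.

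Genes listed as PPARα targets outside oxidation were called in both directions. Whether each of them is a PPARα target in islets was not tested. Of 19 listed, 7 were tested, 2 were called higher and 2 lower, with a median log2 fold change of −0.03. Over all genes 9.05% were called higher and 16.5% lower, and 7 genes are too few to set against these shares. The lipid droplet coat gene Plin2 rose from 41.9 ± 1.64 to 56.6 ± 5.05 FPKM and the mitochondrial carrier gene Ucp2 from a mean of 196 to 234 FPKM (n = 5, and SD for Plin2; adjusted p = 0.000654 and 0.00799 from limma). The transcription factor gene Klf15 fell from 5.19 ± 0.416 to 3.35 ± 0.343 FPKM (SD, n = 5; adjusted p = 0.000562). Fabp3, a fatty acid binding protein, was called lower at −0.27 (adjusted p = 0.0265) but lost the call in 10 of 23 alternatives. The ω-hydroxylase genes Cyp4a14 and Cyp4a12a are listed at 0 in every library.

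In the pyruvate dehydrogenase switch all 15 genes were tested, with a median log2 fold change of −0.13 beside −0.06 over all genes. By limma 3 were called, all lower, where 16.5% of all genes were called lower. Besides Pdk1, these were the phosphatase Pdp1, at 5.18 ± 0.589 FPKM in FL islets, against 3.59 ± 0.269 FPKM in KO islets (SD, n = 5; adjusted p = 0.00214 from limma), and Pdhx, whose call (log2 fold change −0.20, adjusted p = 0.0303) was lost in 13 of 24 alternatives. Of 3 tested ketone body genes, Oxct1, which activates the ketone body acetoacetate, was called lower (log2 fold change −0.30, adjusted p = 0.0489) and lost the call in 16 of 24 alternatives.

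Oxidation of branched and short acyl groups from amino acids had 12 genes tested, with 3 called higher and 1 lower and a median log2 fold change of −0.06. Ivd, isovaleryl-CoA dehydrogenase of leucine breakdown and also in the lactogenic list, rose from 47.8 ± 7.68 to 88.3 ± 15.5 FPKM (SD, n = 5; log2 fold change 0.87, adjusted p = 0.000801 from limma). Gcdh (0.35, adjusted p = 0.00326) and Acad8 (0.37, adjusted p = 0.0125, and 0.0642 from the exact Wilcoxon test), dehydrogenases of lysine and valine breakdown, rose as well, and Mccc1, a carboxylase subunit of leucine breakdown, fell (−0.28, adjusted p = 0.0204). Over all these lists without the 9 genes, 106 of 130 genes were tested, 9 rose and 17 fell by that test, with a median log2 fold change of −0.07 beside −0.06 over all genes. These counts are near the 9.05% called higher and 16.5% called lower over all genes.

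**Figure D5:**
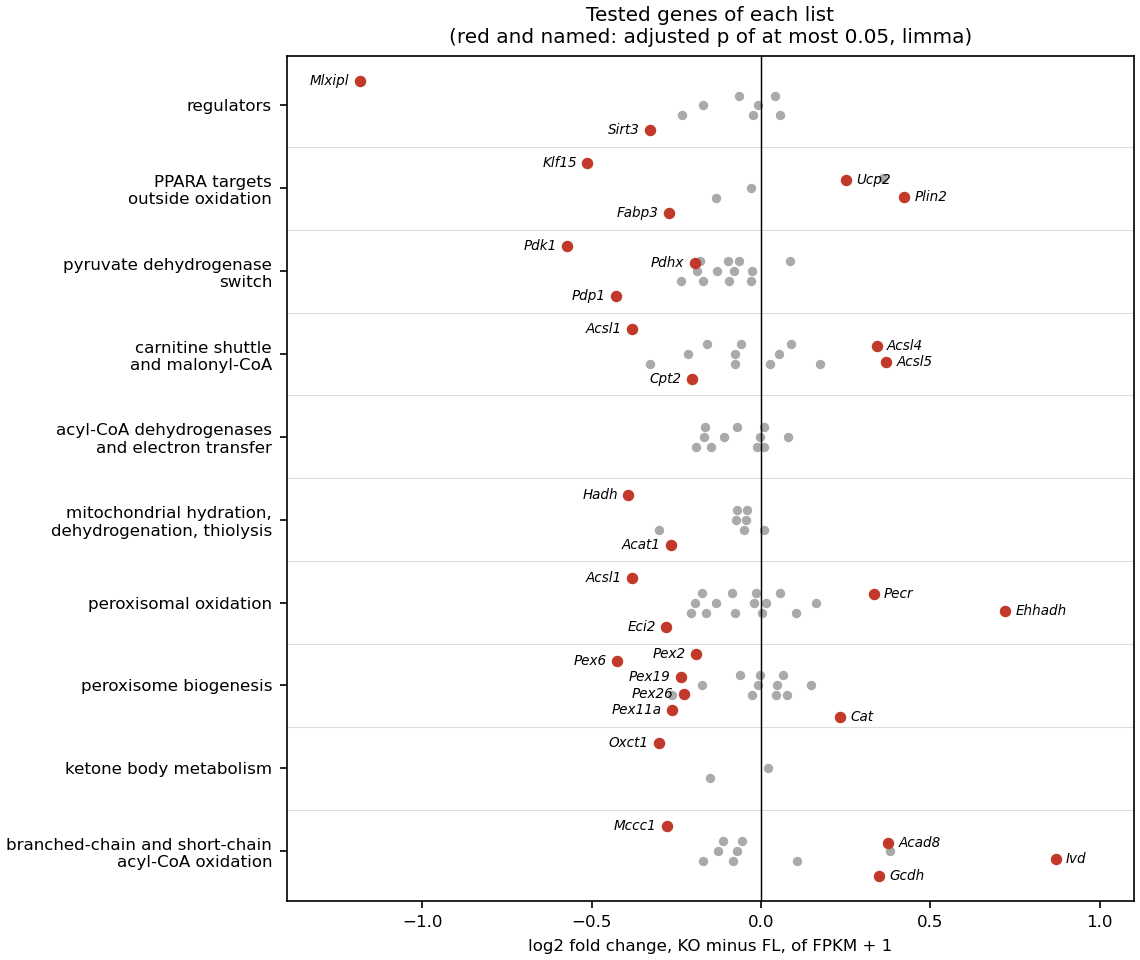
Log2 fold change of FPKM + 1, KO minus FL (x axis), for the tested genes of 10 lists (y axis, vertical spread within a list only separates points). Red points with names passed an adjusted p of 0.05 from limma, and they lie on both sides of 0 in the carnitine, PPARα target, both peroxisome and branched-chain lists.

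Some markers of other cells in islets moved with the groups too. Of 6 endothelial markers tested 4 were higher in KO, of 6 macrophage markers 3, and of 5 stellate cell and fibroblast markers 5, the last with summed levels of 12.1 to 20.6 FPKM in FL and 24.6 to 33.7 FPKM in KO. Over all genes 9.05% were called higher, and an exact Wilcoxon test called 3 genes in each of these 3 lists. For macrophages the sums were 131 to 155 FPKM in FL and 184 to 223 FPKM in KO, and for endothelial cells 126 to 144 and 149.8 to 197 FPKM. Hepatocyte markers, of which 1 of 2 tested was higher, summed to 4.93 to 8.79 FPKM in FL and 8.55 to 11.9 FPKM in KO, mostly from Apoa2 and Fgb. The defining marker Alb averaged 0.331 FPKM in FL and 0.188 in KO. Adipocyte markers summed to 8.21 to 19.5 FPKM in FL and 19.4 to 29.6 FPKM in KO, nearly all from Fabp4, which limma called higher and the exact Wilcoxon test did not, while Adipoq, Retn and Cfd are listed at 0 and Plin1 and Lep averaged under 0.01 FPKM. Of 7 α cell markers 3 were called lower by limma and 2 genes were called by the exact Wilcoxon test, where 16.5% of all genes were called lower by limma. Of 6 δ and PP cell markers tested 1 was lower by limma and 0 were called by the Wilcoxon test (median log2 fold change −0.06), and of 6 duct cell markers tested 1 was higher and 1 lower (median 0.04). The part of these cells in the changes of Ehhadh, Hadh and Cpt2 was not tested.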

How the data were processed

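RNA-sequencing libraries of polyadenylated RNA from 10 mice were strand-specific and single-end. FPKM were deposited by the authors in 1 table, a column for each mouse. The submitters' processing notes name STAR 2.5.2a, Cuffnorm 2.2.1, mm10 and GRCm38, and how libraries were scaled is not given in the sources used here. Reads were not processed again. Of the identifiers, 46841 matched GENCODE M21 without version and 38723 with it, and no pair of libraries held identical values.

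The groups were fitted on log2(FPKM + 1) with limma 3.58.1 (lmFit, then eBayes with a trend; R 4.3.3), without covariates, for 13065 genes whose mean reached 1 FPKM in either group. Benjamini-Hochberg adjustment ran over all of them, and an adjusted p up to 0.05 counted as called. The pseudocount of 1 understates the change of low genes. Single genes and ratios were compared with exact two-sided permutation tests, whose smallest p is 0.00794. Summaries used Python 3.11.15, pandas 2.3.3, numpy 2.4.6, scipy 1.17.1 and matplotlib 3.10.9, and the tests were tested on simulated data. Read numbers are approximate and take the longest transcript as length. They were read from the steps in low FPKM of genes with 1 transcript, where 87.7% to 89.3% of values per library were within 0.05 of a whole read, and counting errors cover counting only. Promoters came from RefSeq (GRCm38.p6).

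Named were the 9 genes, Fitm2, direct partners (2 of those chosen are not reported here), genes of the 6 ratios, and up to 3 called genes per oxidation list and direction with the smallest adjusted p. Cish, Socs2, Prlr, Fabp4, Plin1, Lep, Adipoq, Retn, Cfd, Apoa2, Fgb, Alb, Tph1, Tph2, Echs1, Acaa2, Rxra, Ppard, Pparg, Ppargc1a, Ppargc1b, Pex2, Pex19, Cyp4a14 and Cyp4a12a were named after their values were seen. The 9 genes and the lists were chosen with earlier results of these data known. Alternatives were other pseudocounts, filters, rescalings, limma options, thresholds, an exact Wilcoxon test, the replicate number as a block and leaving out mice. Leaving out KO2 and KO5 together was added after the values were seen. The labels do not say whether mice were handled together.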

Additional observations from a re-analysis of the deposited data

Results flagged for a closer look

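A library was singled out where the gap between the highest or lowest mouse of a group and the nearest other mouse took more than 0.71 of the range of the group. Of 120 groups compared, 7 were singled out, and chance alone gives about 6. Among the 9 genes, only Acadvl in KO2 was, at 46.6 FPKM with the other KO mice between 39.7 and 41.6 FPKM. KO2 also stood above its group for Acaa1a, at 46.7 FPKM against 33.9 to 37.4 FPKM, for Acadl, at 48.6 FPKM against 36.9 to 39.7 FPKM, and for Tph1, at 16.4 FPKM against 9.90 to 11.5 FPKM. KO3 was above the other KO mice for Pex26, at 12.2 FPKM against 10.8 to 11.1 FPKM. In FL, FL4 was below the others for Ucp2, at 184.6 FPKM against 197 to 199.4 FPKM, and FL1 above them for Tph2, at 1.098 FPKM against 0.221 to 0.327 FPKM.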

How the results depend on the processing

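Ehhadh and Hadh kept their direction and their call in the 24 alternatives that refitted the genes, and the ratios of Ehhadh to Hadha, Hadh to Hadha and Cpt1a to Cpt2 in the 12 run for ratios. Hadh and Cpt2 do not reach the stricter threshold of a 1.5-fold change. Rescaling moved the split of calls over all genes, from 2150 lower and 1183 higher to 1530 and 1614 by median ratio, 1455 and 1675 by upper quartile, 1708 and 1494 by quantiles and 1530 and 1389 to a common sum (TPM). The median log2 fold change over all genes was then between −0.02 and 0.00 in place of −0.06. Of 3333 genes called, 1666 were called at an adjusted p of 0.01 and 639 with a change of 1.5-fold as well. Leaving out 1 mouse gave 2554 to 3451. The following values are log2 fold changes, in the order median ratio, upper quartile, quantiles, common sum. Cpt2 had −0.15, −0.14, −0.14 and −0.16, all above an adjusted p of 0.05, and −0.17 to −0.23 without 1 mouse. Without KO2 and KO5 it had −0.20. Acadm turned to 0.046, 0.055, 0.053 and 0.032, and ranged from −0.105 to 0.067 without 1 mouse. Pdk3 turned to 0.029, 0.037, 0.028 and 0.015, to 0.0021 with sample weights, and ranged from −0.074 to 0.040. Hadha turned to 0.014, 0.022 and 0.027 under the first 3 and ranged from −0.114 to 0.026. Pdk4 turned to 0.019, 0.026 and 0.0060 under median ratio, upper quartile and common sum, to 0.013 without KO2 and KO5, and ranged from −0.088 to 0.045. Cpt1a passed only under upper quartile, at 0.15. Acadvl turned to −0.010 with sample weights and −0.024 without KO2 and KO5, and ranged from −0.030 to 0.026. Acads turned to −0.054 and −0.041 under the same changes and ranged from −0.017 to 0.059. Without 1 mouse, Ppara ranged from −0.073 to 0.036, Hsd17b4 from −0.034 to 0.038 and the log2 ratio of Acadm to Acadvl from −0.077 to 0.054. The cause of these shifts was not tested. The same replicate numbers in FL and KO did not pair the mice, since deviations of same-numbered libraries correlated at −0.10 to 0.00 and none matched its own number best. With the replicate block 2368 genes were called, and Cpt2 had −0.20 with an adjusted p of 0.0715. The exact Wilcoxon test called 3 regulators where limma called 2, 3 PPARα targets outside oxidation for 4, 2 genes of the pyruvate dehydrogenase switch for 3, 2 of the carnitine shuttle for 4, 0 of ketone bodies for 1 and 3 of the branched-chain list for 4. Of the other named genes, calls were lost without 1 mouse for Fabp3 (FL1, FL2, FL4 or KO3, adjusted p up to 0.0533), Pdhx (FL2, FL3, FL5, KO2, KO4 or KO5, up to 0.0686), Acsl4 (any mouse but FL4 or KO5, up to 0.0771), Acsl1 (FL5, KO3, KO4 or KO5, up to 0.0576), Cat (any but FL1 or KO3, up to 0.107), Oxct1 (any but KO2 or KO3, up to 0.113) and Mccc1 (KO4, 0.0518). Acaa1a passed with sample weights (adjusted p = 0.00852) and Etfdh under upper quartile (0.0427). Pdk4 and Ppara gave no value under a filter of 5 FPKM, and limma options were not run for Ppara. FPKM give no exact read numbers, so a count test was not run.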
